A study of Mus musculus with 4 samples.

Results

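The regions described are the ATAC-seq peaks that lay inside the longest protein-coding genes of the mouse, those over 500 kb, on chromosomes 1 to 19. A merged peak was a member when its centre was inside such a gene and more than 1000 bp from either end. Of the 74695 merged peaks of the series, 1641 met this rule, which was 2.197% of all and 2.25% of the 72875 on these chromosomes. Of the 1641 members, 32 lay in more than 1 such gene and were counted once, at the longest. Counted so, the members lay in 126 of 216 genes, and the other 90 genes, 41.7% of them, were given none. Some of the 90 overlap a longer gene and share its peaks. Schip1, for example, spans a member that was counted at Iqschfp.

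The study mapped accessible chromatin in macrophages sorted from the brain parenchyma of mice. ATAC-seq uses the Tn5 transposase, which inserts adapters where DNA is not covered by nucleosomes. There were 2 libraries of the group labelled MDM, read from the series title as monocyte-derived macrophages, and 2 of the group labelled YSM, which the labels do not spell out. All 4 carried the same genotype, Ms4a3-Ai9, and the same treatment, DR-3x, whose meaning is not given. Ms4a3 is active in progenitors that give rise to granulocytes and monocytes, and Ai9 is a red fluorescent reporter switched on by Cre. Whether the replicate libraries are from different mice is not stated. The files gave no value per library, so the depth is unknown and no replicate error can be attached to any value. Intervals below are exact 95% Clopper-Pearson intervals that cover counting error only and take neighbouring peaks as independent, which they are not.

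Very long genes are mostly intron. Many of them encode adhesion molecules, synaptic scaffolds and ion channels of neurons, and a smaller number encode transcription factors and signalling proteins that blood cells also use. Introns hold enhancers, stretches bound by transcription factors that raise transcription of the host gene or of a neighbour. A merged peak inside such a gene is therefore a candidate regulatory region whose target gene is not known from its position alone.

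A member covered all 300 bases of a RefSeq promoter window of its own host gene at 3 genes, Rarb, Marchf1 and Zfhx3. Rarb encodes retinoic acid receptor beta, a nuclear receptor that turns on genes when it binds retinoic acid, and its member is in the authors' YSM list. Marchf1 encodes a ubiquitin ligase that lowers surface MHC class II in antigen-presenting cells, and its member is in neither list. Both windows are shown because they are the sequence of an open start site inside a very long gene, 1 listed and 1 not. They run 5′ to 3′ on the strand of the gene, from 250 bases before to 50 bases after the annotated start, from RefSeq on GRCm38.p6 (Rarb chr14:16575427-16575726, minus strand; Marchf1 chr8:66386051-66386350, plus strand). Capitals mark a DR5 element in the first and the reverse complement of GAGGAA in the second.
Rarb: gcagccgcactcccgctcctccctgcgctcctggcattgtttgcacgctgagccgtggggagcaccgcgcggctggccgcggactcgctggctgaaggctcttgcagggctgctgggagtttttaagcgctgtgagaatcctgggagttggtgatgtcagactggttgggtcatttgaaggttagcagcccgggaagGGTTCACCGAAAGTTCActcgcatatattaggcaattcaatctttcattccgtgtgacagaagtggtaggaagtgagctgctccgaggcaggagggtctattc
Marchf1: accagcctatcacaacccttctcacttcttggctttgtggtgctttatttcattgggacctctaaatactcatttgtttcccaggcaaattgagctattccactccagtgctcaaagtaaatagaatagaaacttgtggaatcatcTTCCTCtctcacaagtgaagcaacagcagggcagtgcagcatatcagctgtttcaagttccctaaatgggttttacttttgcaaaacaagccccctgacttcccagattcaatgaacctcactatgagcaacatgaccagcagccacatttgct

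A DR5 element is a direct repeat of a half-site with 5 bases between the copies, each copy being AGGTCA, its variant GGGTCA, the form AGTTCA or the form GGTTCA, a form to which retinoic acid receptors are known to bind. The search ran on both strands and found 1 copy in the Rarb window, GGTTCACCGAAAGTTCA, which starts at base 198 and ends 36 bases before the annotated start. Of all 32851 promoter windows in the table, 32 held a DR5 element (0.0974%). GAGGAA, the core of the sites bound by the macrophage factor PU.1, was searched on both strands too, and 28.3% of windows held it. The AP-1 site TGANTCA was in 7.81% of windows and in neither window shown. A match describes these letters only and says nothing of binding. The members at Rarb and Marchf1 combined 2 and 5 subpeaks, the calls from single libraries that had been merged into an interval. In all, 32 members overlapped a promoter window, 15 of them a window of their own host gene, at 14 genes. Rarb held the 1 of these 32 that was in a list.

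Merged peaks were sparse in genes over 500 kb. Their pooled density was 0.902 per 100 kb over 182 Mb, against 4.14 per 100 kb in genes of at most 500 kb. The median gene over 500 kb held 0.190 per 100 kb, with the middle 50% of genes between 0 and 1.60. The median did not fall at each step of length. It was 0 up to 20 kb, where 25.7% of genes held a peak, against 58.3% over 500 kb. It was 3.37 from 20 to 50 kb, 3.40 from 50 to 100 kb, 2.90 from 100 to 200 kb and 1.22 from 200 to 500 kb. From the shortest genes to the longest, the pooled density was 5.29 per 100 kb up to 20 kb, 4.998 from 20 to 50 kb, 4.74 from 50 to 100 kb, 4.27 from 100 to 200 kb, 2.67 from 200 to 500 kb and 0.902 over 500 kb. Within the longest class the order of the pooled density went on. Pooled, it was 1.73 per 100 kb from 500 to 600 kb, 1.41 from 600 to 800 kb, 0.671 from 800 to 1000 kb and 0.320 over 1000 kb. The limit itself falls among genes of differing density. Edil3 (501754 bp) held 1 member and Dock1 (502961 bp) held 5, while just below the limit Dnm3 (495872 bp) held 13 merged peaks and Lrrc7 (494798 bp) held 2. None of these peaks was in a list.

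**Figure D1:**
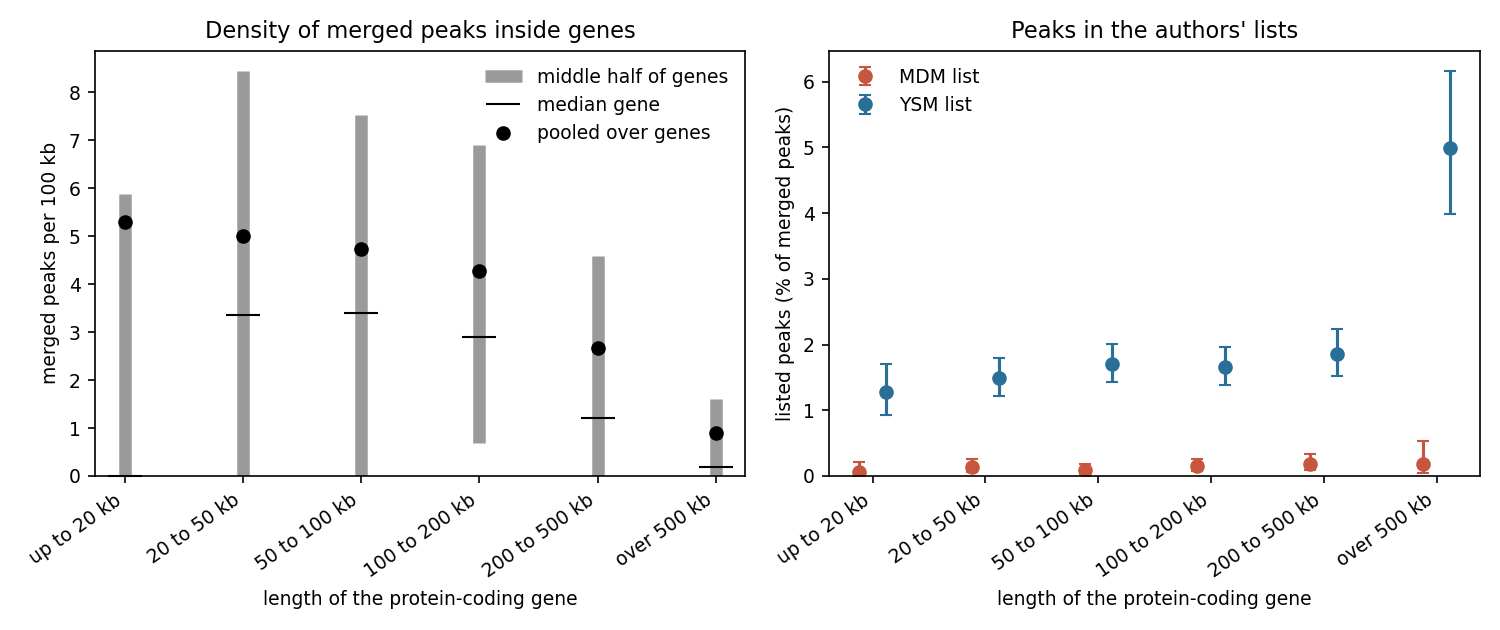
Left, merged peaks per 100 kb inside protein-coding genes by gene length (black points, pooled; dashes, median gene; grey bars, middle 50% of genes). Right, percent of those peaks in the authors' MDM and YSM lists with exact 95% intervals; the pooled density is 0.902 per 100 kb over 500 kb, where the YSM-listed share is 4.997%.

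Density differed widely among the 216 genes. Elmo1, an adaptor that activates Rac during engulfment of dying cells and cell migration, had the highest value, 10.9 members per 100 kb with 56 members in 517847 bp on chromosome 13. Zfhx3, a zinc-finger homeobox transcription factor, had 9.41 per 100 kb with 64 members, the most of any gene, and Foxp1, a forkhead transcription factor of lymphocytes and monocytes, had 9.24 with 55. Frmd4a, a FERM-domain scaffold protein, held 52 and the histone deacetylase gene Hdac9 held 51. At the other end, among genes with at least 5 members, Cntnap2, a neurexin-family adhesion gene, had 0.402 per 100 kb, Dlg2, a postsynaptic scaffold gene, 0.254, and Macrod2, which encodes a hydrolase of ADP-ribose, 0.251. The longest genes without a member were Ptprd (2270506 bp), a receptor tyrosine phosphatase, Lsamp (2197426 bp), a neuronal adhesion protein, and Csmd1 (1642848 bp), a complement-regulating membrane protein. In 16 genes there was exactly 1 member, and in 26 there were 20 or more.

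The gene groups, which share some genes, differed too. They were drawn up with earlier results of these data known, so their values are descriptions only. In the group named for leukocyte signalling and cytoskeleton, all 16 genes that passed the length limit held members, 440 in all, or 3.72 per 100 kb. This group includes Nav2, Nav3, Frmd4a and Lpp, whose roles in leukocytes were not checked here. Of 19 transcription and RNA-binding factor genes, 13 held 246 members (1.70 per 100 kb). Of 38 synaptic and axonal adhesion genes, 18 held 127 members (0.304 per 100 kb), and of 21 ion channel and neurotransmitter receptor genes, 10 held 37 (0.217 per 100 kb). Of 12 cadherin, catenin and junction scaffold genes, 6 held 89 (0.693 per 100 kb), and of 6 receptor-type tyrosine phosphatase genes, 3 held 27 (0.443 per 100 kb). Common fragile site genes, known for breakage under replication stress, held members in 13 of 15 genes, 129 in all (0.580 per 100 kb). Of the 96 genes in no group, 52 held 579 members (0.843 per 100 kb).

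**Figure D2:**
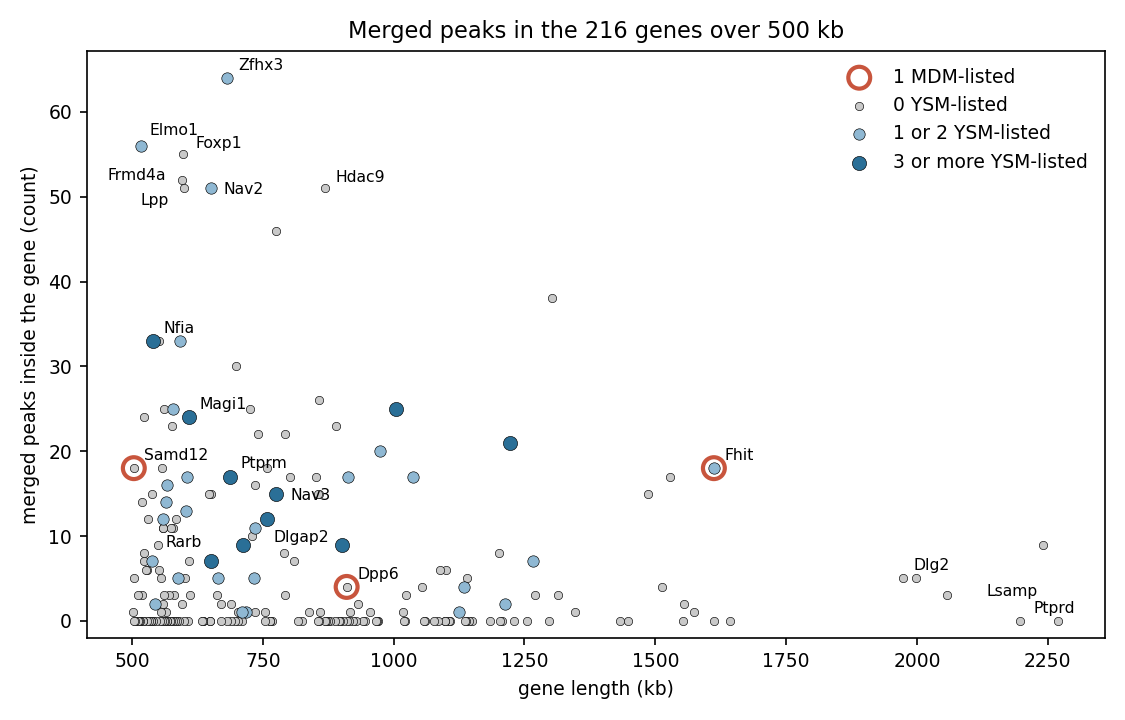
Each point is 1 of 216 genes over 500 kb, placed by its length (kb) and its count of merged peaks inside. A peak in more than 1 such gene is counted at the longest. Red rings mark genes with 1 MDM-listed member and the blue shades count YSM-listed members; Zfhx3 is highest with 64, and Ptprd and Lsamp, the longest genes with no member, lie at 0.

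Few members were in the authors' MDM list, and 82 were in their YSM list. Each list is named for 1 group, and its peaks are read here as the more open ones of that group. In sorted bulk samples, fewer cells with an open site and less opening per cell cannot be told apart. The MDM list held 3 members, 0.183% (0.0377 to 0.533), where 0.145% of all merged peaks were in that list, 0.148% of those on chromosomes 1 to 19 and 0.130% (0.0936 to 0.176) of those inside genes of at most 500 kb. The YSM list held 82, or 4.997% (3.99 to 6.16), where 1.48% of all merged peaks were in that list, 1.50% of those on chromosomes 1 to 19 and 1.62% (1.49 to 1.77) of the 32342 inside shorter genes. The MDM intervals overlap and the YSM intervals do not. Across length classes the YSM share was 1.27% up to 20 kb, 1.49% from 20 to 50 kb, 1.70% from 50 to 100 kb, 1.65% from 100 to 200 kb and 1.85% from 200 to 500 kb.

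Counted per length of gene, YSM-listed peaks were not denser in these genes. They came to 0.451 per Mb over 500 kb, against 0.495 per Mb from 200 to 500 kb and 0.804 per Mb from 50 to 100 kb, the highest class. No test was made of either difference, since peaks are not replicates and no library values were given.

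The 3 MDM-listed members lay in 3 genes. Samd12, a gene of a protein with a sterile alpha motif, held one at 53400114 to 53400645 on chromosome 15 (mm10, as are all positions given), 1.27 kb from an end of the gene, which combined 10 subpeaks. Fhit, a diadenosine triphosphate hydrolase at a fragile site, held one at 10139448 to 10139777 on chromosome 14, 590 kb from its nearer end, with 5 subpeaks. Dpp6, a subunit of neuronal potassium channels, held one at 27184977 to 27185253 on chromosome 5, 368 kb from its start, with 4 subpeaks. With 4 or more subpeaks, each of the 4 libraries can have had a call in all 3. Fhit also held 1 YSM-listed member, at 9556058 to 9556258, a call from a single library.

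The YSM-listed members were gathered in a small number of genes. With each member counted at 1 gene, 180 of the 216 genes held none, 20 held 1, 6 held 2 and 10 held 3 or more. Among them were Magi1 (10), Ptprm (9), Nav3 (6), Rarb (5), Nfia and Dlgap2 (4 each), and Pard3b, Etl4 and Kcnma1 (3 each). The 10 genes held 50 of the 82 (61.0%), though they had 10.5% of the members and 4.31% of the summed length. Of genes with a merged peak inside, 7.94% of the 126 over 500 kb had 3 or more YSM-listed peaks, against 0.452% of the 8626 protein-coding genes of any length. The 8626 include the 126. A gene with fewer than 3 merged peaks cannot reach that count, and the number of peaks per gene was not matched. Outside these 10 genes, 32 of 1469 members were YSM-listed, 2.18% (1.49 to 3.06). With genes of 3 or more YSM-listed peaks left out of the shorter genes too, 423 of 32045 peaks were YSM-listed there, 1.32% (1.20 to 1.45), and the intervals do not overlap. Genes were left out by the same count that is compared, so both values are descriptions.

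Within genes over 500 kb, length did not order the genes by their listed peaks. Over genes of any length with a merged peak inside, longer genes held more. Across the 216 genes, Spearman's rho was -0.033 between length and listed members and 0.435 between the number of members and listed members. The 216 include the 90 genes given no member, which can hold no listed one. Over the 8626 protein-coding genes of any length with a merged peak inside, rho between length and listed peaks was 0.175. Between merged peaks and listed peaks it was 0.198 in the same genes. The sets of genes are unlike, so these values are not set against the first. The share of genes with 3 or more YSM-listed peaks was 0 up to 20 kb, 0.0412% from 20 to 50 kb, 0.290% from 50 to 100 kb, 0.877% from 100 to 200 kb, 1.097% from 200 to 500 kb and 4.63% over 500 kb. The number of peaks per gene was not matched between these classes. Listed members are a part of the members, and all genes share the same 4 libraries, so these are descriptions. If the 82 YSM-listed members were shared out by length, no gene would hold more than 1.02. Magi1 would hold 0.273, Ptprm 0.309, Nav3 0.348 and Rarb 0.293, and the 10 genes together 3.53 in place of 50. Shared out by members, Magi1 would hold 1.20, Ptprm 0.849, Nav3 0.750 and Rarb 0.350, and the 10 genes 8.59. The 10 genes were chosen by their listed count, so an excess over either value was fixed by the choice and nothing is read from its size.

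The 20 longest genes held few listed members, and the cut at 20 matters. The 20 longest, from 1302 to 2271 kb, held 121 members, 1 of them MDM-listed and 1 YSM-listed. For the YSM list, length pro rata gave 15.1 and members pro rata 6.05. The 10 genes with 3 or more ranked between 26 and 189 by length, the shortest being Nfia with 541 kb. Genes from 600 to 800 kb held 46 of the 82, with 6 of the 10 genes, so that 9.07% of their members were YSM-listed. Most of the 46 were at Magi1 (10), Ptprm (9), Nav3 (6) and Rarb (5), so this share rests on few genes. The share was 2.38% from 500 to 600 kb and 2.64% from 800 to 1000 kb. The 55 genes over 1000 kb, which include the 20 longest, held 14 YSM-listed among 234 members (5.98%).

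**Figure D3:**
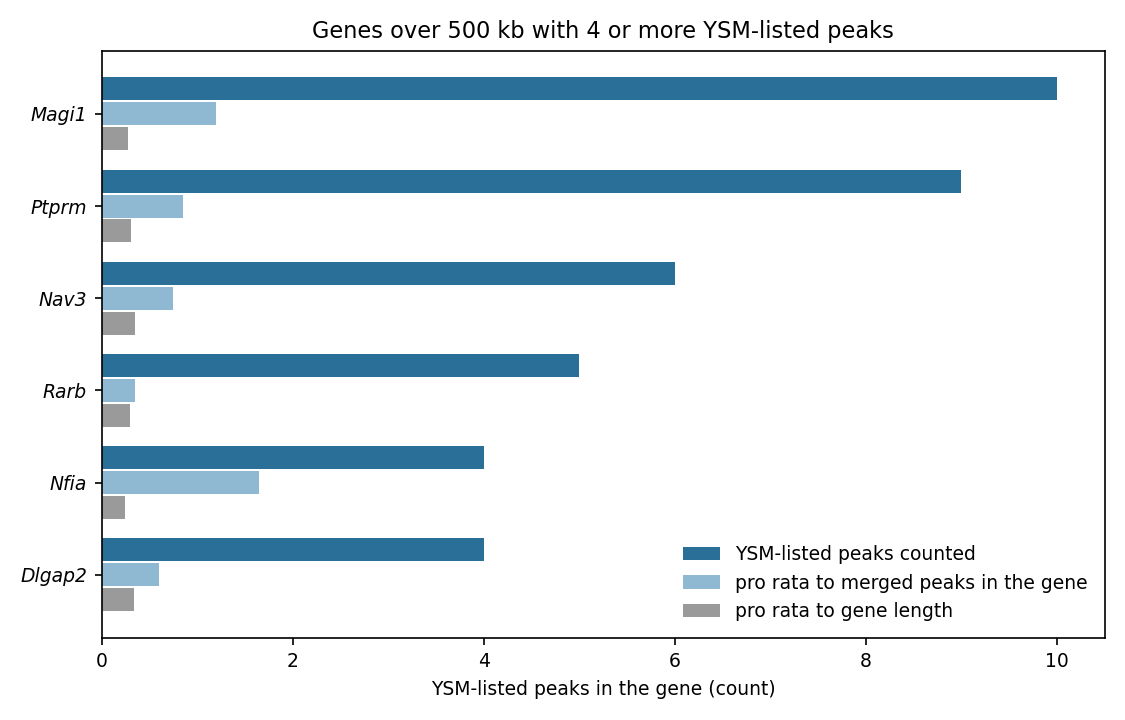
Bars give, for the 6 genes over 500 kb with 4 or more YSM-listed members, the count (dark blue) and the counts that sharing out all 82 by members (light blue) or by gene length (grey) would give. Magi1 holds 10 in place of 1.20 and 0.273.

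The 8 genes richest in members were poor in listed ones. The 8 with the most members were Zfhx3, Elmo1, Foxp1, Frmd4a, Nav2, Hdac9, Lpp and Arhgap26. They held 46 to 64 each, 426 in all (26.0% of members), with 0 in the MDM list and 3 in the YSM list, 1 each at Zfhx3, Elmo1 and Nav2. Shared out by members the 8 would hold 21.3 YSM-listed peaks, and at the share seen in shorter genes 6.92. The cut at 8 matters. The 20 genes with the most members held 23 YSM-listed among 767 members, where sharing out by members gave 38.3. Among those 20, 3 genes had 3 or more YSM-listed members. In 88 genes there were members but no listed one, 1023 in all.

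Magi1, a scaffold of cell junctions on chromosome 6 (93675453 to 94283929, minus strand), had 24 members, of which 10 were YSM-listed. A run of 8 listed members lay at the 5′ side of the gene, from 94159464 to 94274077, and took 8 of the 9 members in those 115 kb. The listed peaks stood 9.96, 14.6, 29.8, 61.6, 62.0, 88.5, 121 and 124 kb from the start. The other 2, at 93718215 to 93718566 and 93870207 to 93870529, were 566 and 414 kb from it. One more YSM-listed peak, 94283620 to 94283971, was within 1000 bp of the start and is no member. The members at 94221722 to 94222201 and 94222245 to 94222493 were close neighbours and may be pieces of 1 open region.

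Ptprm, a receptor tyrosine phosphatase that joins cells by binding itself, lies on chromosome 17 (66666848 to 67354491, minus strand). Of its 17 members, 9 were YSM-listed. They also lay in the 5′ part of the gene, from 7.22 to 221 kb from the start, and 6 followed one another from 67260018 to 67347388 in 87.4 kb. The farthest was 67133658 to 67133869 and the nearest 67347163 to 67347388.

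Nav3, a microtubule-binding protein of the neuron navigator family, had 6 YSM-listed among 15 members on chromosome 10 (109681260 to 110455722). A stretch of 68.8 kb, from 109917616 to 109986424, held 4 of them among 8 members, and the others were at 109856267 to 109856500 and 110094611 to 110094812. The strand of Nav3 was not used here, and its start was not placed.

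Rarb (chromosome 14, 16430839 to 17082331, minus strand) had 7 members and 5 were YSM-listed, 71.4%. All 7 had at most 3 subpeaks. The one at 16575416 to 16575774 covers the promoter window printed above, and the nearest on either side were 16538271 to 16538502 and 16598188 to 16598391. The other 2 were 16457241 to 16457507 and 16478895 to 16479284. The printed start lies inside the gene, its member 507 kb from the far 5′ end of the annotated gene.

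**Figure D4:**
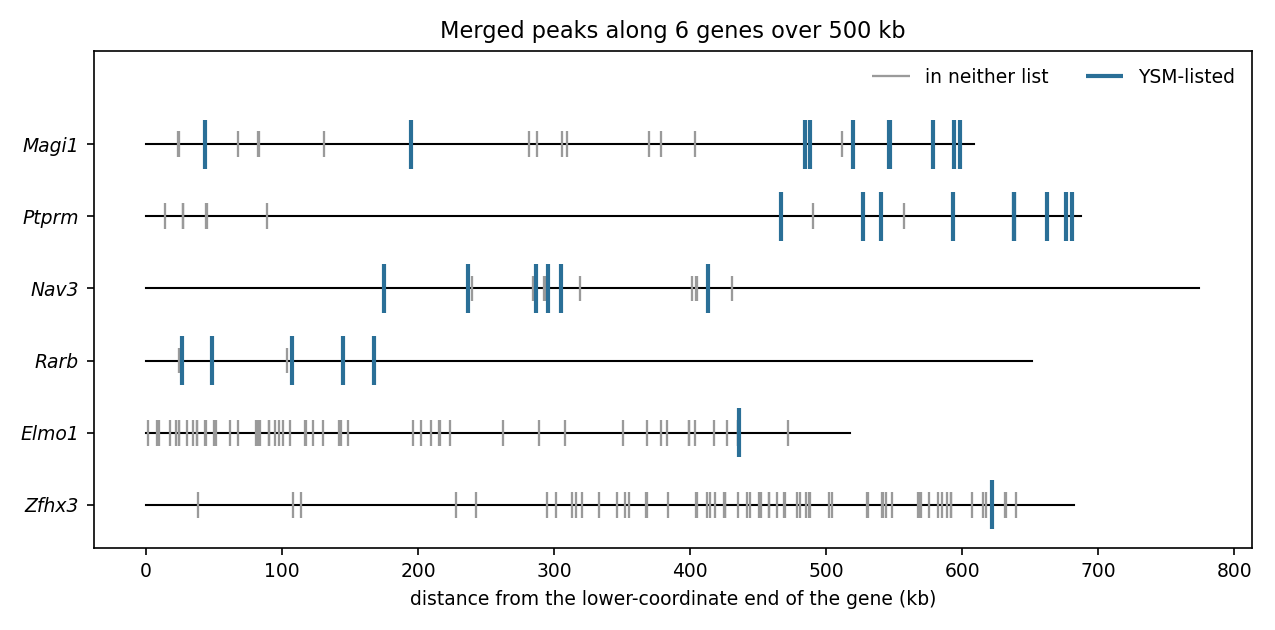
Ticks show the merged peaks along 6 genes over 500 kb by distance from the gene's lower-coordinate end (kb), with YSM-listed peaks tall and blue and peaks in neither list short and grey. Listed ticks crowd the right-hand, 5′ end of Magi1 and Ptprm, while Elmo1 and Zfhx3 have 56 and 64 ticks with 1 listed each.

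Other genes of the 10 held 3 or 4. Nfia, a nuclear factor I transcription factor, had 33 members and 4 YSM-listed ones, of which 2 lay 5.30 and 9.83 kb from its 3′ end, at 98113390 to 98113757 and 98108838 to 98109246 on chromosome 4. Dlgap2, a postsynaptic scaffold gene, had 4 of 12, and 2 of them, 14675562 to 14675822 and 14683634 to 14684025 on chromosome 8, made a pair spanning 8.46 kb. Etl4, a gene known for its role in forming intervertebral discs, had 3 of 9, all within 27.3 kb from 20624176 to 20651429 on chromosome 2. Kcnma1, the pore of the large-conductance calcium-activated potassium channel, had 3 of 9, of which 2 lay within 15.0 kb, from 23825024 to 23839976 on chromosome 14. Pard3b, a cell polarity gene, had 3 of 25, with 2 of them in a span of 23.3 kb from 62414663 to 62437982 on chromosome 1.

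Exactly 2 YSM-listed members were found in 6 genes. Both members of Tafa1, which encodes a secreted chemokine-like protein, were listed and lay together from 96116430 to 96117117 on chromosome 6, 3.38 and 3.80 kb from the start. The pair spans less than 1000 bp and may be pieces of 1 open region. Fat3, an atypical cadherin, had 2 of 33, with centres 181900 bp apart, and the adhesion gene Sdk1 had 2 of 20, with centres 90719 bp apart. Agbl4, which shortens glutamate chains on tubulin, had 2 of 7, and Opcml, a neuronal adhesion protein, had 2 of 4, with centres 52847 bp apart.

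By gene group, receptor-type phosphatases had 9 YSM-listed of 27 members (33.3%), all at Ptprm, and leukocyte signalling and cytoskeleton genes had 9 of 440 (2.05%), with Nav3 holding 6. Cadherin, catenin and junction scaffold genes had 13 of 89 (14.6%), all at Magi1 and Pard3b. Synaptic and axonal adhesion genes had 11 of 127 (8.66%), at 6 genes, and channels and receptors 3 of 37 (8.11%), all at Kcnma1. Fragile site genes had 7 of 129 (5.43%), at 4 genes, and transcription and RNA-binding factor genes 11 of 246 (4.47%), at Rarb, Nfia, Zfhx3 and Ralyl. The 96 genes in no group had 19 of 579 (3.28%). Over all 1641 members the share was 4.997%, and over all merged peaks 1.48%. The shares of the phosphatases and of the channels and receptors rest on 1 gene each. The MDM-listed members were at Dpp6 of the channel group, at Fhit of the fragile site group and at Samd12, which is in no group.

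About as many YSM-listed members lay in runs as stood alone. Of the 82, 40 lay in 13 runs of 2 or more with gaps of up to 50 kb, in 11 genes, and 42 stood alone. Measured between centres, 39 of the 62 in genes with another YSM-listed member had one within 50 kb (62.9%). Of members in neither list, 513 lay in genes with a YSM-listed member, and 113 of these had one within 50 kb (22.0%). The first share covers 16 genes and the second 32. The second set includes genes with a single YSM-listed member, such as Zfhx3 and Elmo1. The shares thus rest on unlike genes, and no difference in clustering is read from them. The median distance to the nearest member of any kind was 8.21 kb for YSM-listed members and 4.17 kb for members in neither list. Strand was known for 63 YSM-listed members, and 15 of these (23.8%) lay within 100 kb of the start of the gene, against 203 of 1299 members in neither list (15.6%). Without Magi1, Ptprm, Nav3 and Rarb, it was 3 of 39 YSM-listed members (7.69%). Nav3 had no strand and was not among the 63. The genes were left out for their listed count, and from the YSM-listed set only. The 7.69% is therefore not set against the 15.6%. Members of both kinds were most frequent towards the 3′ end. The last 10% of gene length held 12 of the 63 YSM-listed members and 16.6% of the 1299 in neither list.

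Members carried fewer subpeaks than peaks of shorter genes, at the end of a gradient with gene length. An interval of 3 or fewer subpeaks lacks a call in 1 library or more. This held for 886 members, 54.0% (51.5 to 56.4), against 46.6% (46.1 to 47.2) inside shorter genes. The share rose with gene length at each step. It was 41.3% up to 20 kb, 44.8% from 20 to 50 kb and 46.7% from 50 to 100 kb. It was 48.4% from 100 to 200 kb and 49.3% from 200 to 500 kb. The median was 3 subpeaks for members and 4 inside shorter genes, and 26.8% of members had a single one, against 22.3% of peaks inside shorter genes. The share with a single one also rose with gene length, from 18.8% up to 20 kb to 23.2% from 100 to 200 kb. It was higher again from 200 to 500 kb, though below that of members. Of the YSM-listed members 60 of 82 (73.2%, 62.2 to 82.4) had at most 3, and 44 had exactly 2. Of those in neither list, 53.1% (50.6 to 55.6) had at most 3. The YSM-listed peaks of shorter genes gave 73.0% (68.9 to 76.7). The lists and the subpeak number rest on the same accessibility and are not independent. The members with the most were at Fat3 (11 subpeaks in 885 bp), Magi2 (10) and Samd12 (10). Median width was 232 bp for members and 236 bp for peaks inside shorter genes.

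The YSM share was also compared at equal subpeak numbers. Among peaks with exactly 2 subpeaks, 17.3% of 254 members (12.9 to 22.5) were YSM-listed, against 5.98% (5.28 to 6.74) of 4232 inside shorter genes. With exactly 4 it was 3.49% of 602 (2.17 to 5.28), against 0.804% (0.662 to 0.967) of 13932. With 3 it was 6.22% (3.25 to 10.6), against 2.72% (2.21 to 3.30), and with 1 it was 0.911% (0.249 to 2.32), against 0.431% (0.293 to 0.611), and for both numbers the intervals overlap. With 5 it was 0 of 91 members (0 to 3.97%), against 1.07% inside shorter genes. With 6 it was 1 of 33 members, against 0.777%, and with 7 or more 0 of 29 (0 to 11.9%), against 0.581%. At the shares of shorter genes for each subpeak number, the 1641 members would hold 28.6 YSM-listed peaks, and at their overall share 26.6, where 82 were counted. Of the 82, 50 lay in the 10 genes with 3 or more YSM-listed members, so the total rests in large part on few genes. The comparison by subpeak number was not repeated without them.

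**Figure D5:**
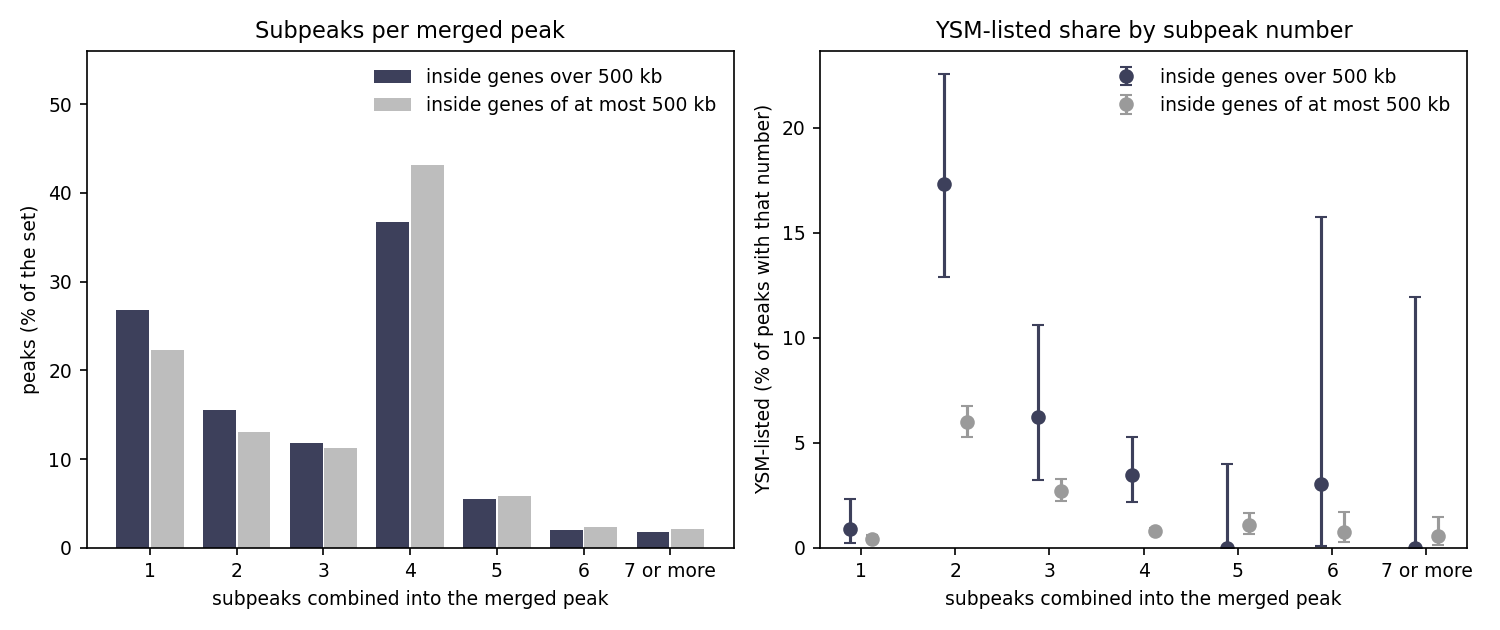
Left, percent of merged peaks by the number of subpeaks they combine, inside genes over 500 kb (dark) and inside shorter genes (grey). Right, percent of the peaks with that number that are YSM-listed, with exact 95% intervals; at 2 subpeaks it is 17.3% in genes over 500 kb and 5.98% in shorter ones.

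The members were spread over all 19 chromosomes, with 21 to 175 each. Chromosomes 17, 14 and 6 held 12 YSM-listed members each, among 56 (21.4%), 75 (16%) and 128 members (9.38%), where 1.30%, 2.92% and 2.02% of all merged peaks of these chromosomes were YSM-listed. Ptprm alone held 9 of the 12 on chromosome 17 and Magi1 10 of the 12 on chromosome 6. Chromosomes 12, 18 and 19 held 0 among 89, 69 and 21. Of the 1641 members, 53 were also inside or within 1000 bp of a shorter protein-coding gene, with 1 YSM-listed among them, and 81 (4.94%) were within 1000 bp of an end of another gene of any kind, with 0 in either list.

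The labelled cell type was checked on merged peaks inside or within 1000 bp of marker genes. All 10 macrophage and microglia markers, Spi1 and Cx3cr1 among them, had a peak of 4 or more subpeaks. So had 3 of 7 neuron, 3 of 4 astrocyte, 3 of 4 oligodendrocyte and 3 of 4 endothelial markers, while Snap25, Syt1, Gad1, Aqp4 and Cldn5 had no merged peak. No marker had a listed peak. The part of other cell types in the YSM-listed members was not tested.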

How the data were processed

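Trimmomatic 0.39, Bowtie2 2.2.5, Picard, HOMER and mm10 are named in the submitters' processing notes, without settings or order. Per the file headers, the authors ran mergePeaks, a HOMER program, on 4 peak files, 1 for each library. Peak calling settings, any Tn5 shift and the thresholds of the authors' MDM and YSM lists, which the deposited file names tie to DESeq2, are unknown (not given in the sources used here). Deposited intervals carry a subpeak count each. All 15127 intervals with 1 subpeak were 201 bp wide, and 0 were wider than 201 bp times their subpeaks.

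Genes were the RefSeq protein-coding genes of GRCm38.p6, which shares its chromosome sequences with mm10. Every listed interval matched a merged one. Coordinates are 1-based. The gene start was placed for the 169 of 216 genes with a strand in the promoter table. In 1526 of 1526 overlaps between promoter windows of opposite strands, the sequences were reverse complements. The placement of peaks was tested on simulated positions. Python 3.11.15, pandas 2.3.3 and scipy 1.17.1 were used. No test was run, and no replicate fit was possible.

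Genes were named if they held an MDM-listed member, 3 or more YSM-listed members, the most members, the highest or lowest density, the greatest length without a member, or a length next to the limit. Some genes that met this rule are not reported here by name. Others named were chosen after their values were seen. The members and lists were chosen with earlier results of these data known.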

Additional observations from a re-analysis of the deposited data

How the results depend on the processing

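Of 73 values under an alternative setting, 57 stayed within 1.5 times the count or within the 95% interval of the first value, and 16 moved. With a length limit of 300000 bp there were 4250 members, 1.40 per 100 kb and 3.27% YSM-listed. With 1000000 bp there were 234 members, 0.320 per 100 kb, 62.4% with at most 3 subpeaks and 2 genes with 3 or more listed peaks. With at least 2 subpeaks the YSM share was 6.49%, the density 0.660 and the share with at most 3 subpeaks 37.2%, both of the last lower by construction. With neighbours within 1000 bp counted as 1 the density was 0.764 per 100 kb, and a share by subpeak number could not be given. Without the genes with 3 or more YSM-listed members, an alternative chosen after seeing the data, the YSM share was 2.18%, the density 0.843 and the count of such genes 0 by construction. Spearman's rho between length and listed peaks was -0.033 over the 216 genes, with or without a member. It was 0.175 over 8626 genes with a merged peak inside, an unlike set. That of members with listed peaks over the 216 genes was 0.435. The counts at the other length limits, and the density with neighbours merged, could move in a single direction by construction. Of the 439 members with a single subpeak, left out where at least 2 were asked for, 4 were YSM-listed. The cause of the other moves was not tested. No paired analysis was possible because the files give no values per library. Replicates could not be left out for the same reason.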

Other observations

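Outside the rule, the 11 protein-coding genes over 500 kb on chromosome X held 38 merged peaks in 6 genes, 0.364 per 100 kb, with 0 in either list, while 8 of 1754 merged peaks of that chromosome were YSM-listed. The 9 autosomal genes over 500 kb of other annotated kinds, which include the immunoglobulin heavy chain locus Igh with 45 merged peaks and the T cell receptor locus Tcra with 12, held 67 merged peaks, 0.525 per 100 kb, with 0 in either list. Within 1000 bp of an end, but inside, genes over 500 kb held another 52 merged peaks, with 0 MDM-listed and 5 YSM-listed, among them 1 at Kcnma1, 2 at Nbea and 1 at Magi1.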
